A study of Mus musculus with 6 samples.

Results

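The heat shock transcription factors Hsf1 and Hsf2, a pair of small heat shock protein genes (Hspb1, Cryab), the mitochondrial chaperonin genes (Hspd1, Hspe1) and 3 cofactors of Hsp70 (Bag1, Bag3, Hspbp1) were examined in natural killer (NK) cells. They were picked by gene symbol, and all 9 were found among the 37991 genes of the count files. The cells were splenic NK cells carrying CD27 and CD11b, surface proteins of an intermediate maturation stage, from mice of the C57BL6 background. Of the 6 RNA sequencing libraries, 3 were wildtype and 3 Rroid deficient, with no treatment named for either genotype. Rroid is a noncoding transcript at a regulatory element near Id2. The labels give neither the mice's age nor the design of the deficient allele, nor whether a library was 1 mouse or a pool. Since nothing says that replicates were taken from different animals, the p-values reflect the spread among these libraries, which may be technical.

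Cells that meet misfolded protein raise a common set of chaperones through heat shock factors, which bind repeated short elements in promoters. Small heat shock proteins hold unfolded protein, Hsp70 refolds it with the help of J-domain proteins, and nucleotide exchange factors such as the BAG proteins and HSPBP1 release it again. The chaperonin of the mitochondrion, built from Hsp60 and its lid Hsp10, folds imported proteins.

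Heat shock factors recognise inverted repeats of GAA, so RefSeq promoter windows (build GRCm38.p6, 250 bases before to 50 bases after the start site) were searched for GAANNTTC and TTCNNGAA, which each read the same on both strands, and for the 3-unit run GAANNTTCNNGAA on both strands, which contains both shorter ones. Windows were matched for 7 of the 9 genes, and 4 of these held a match (Hspd1, Hspe1, Hspb1 and Bag3). Hspd1 and Hspe1 were counted for the same element, and another window of Hspd1 held no match. Of 32851 windows, 7.86% held GAANNTTC, 8.52% TTCNNGAA and 0.603% the 3-unit run. The share of windows holding either shorter form was not counted. Hspd1 and Hspe1 are transcribed away from each other and share 1 promoter, which holds the 3-unit run and its overlapping repeat as an 18-base element, from base -89 to base -72 before the Hspe1 start. The windows of Bag1, Hsf2 and Hspbp1 had none of these letters. Among other heat shock genes searched, the windows of Dnajb1 held no match and a window of Dnaja1 held GAANNTTC. The stretches shown carry the matches in capitals, 5′ to 3′ on the strand of the named gene, with Hspa1a added as the heat shock gene that passed the test.
Hspe1 and Hspd1 (chr1:55088053-55088082, + strand, between the start sites of both genes' main transcripts and inside the first exon of another Hspd1 transcript): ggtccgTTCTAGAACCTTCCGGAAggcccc
Hspb1 (chr5:135887789-135887848, + strand, upstream of the gene and in no annotated exon): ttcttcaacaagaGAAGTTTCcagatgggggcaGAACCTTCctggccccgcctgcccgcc
Bag3 (chr7:128523613-128523632, + strand, in the first exon): tggatgggaccaGAAGTTTC
Hspa1a (chr17:34972227-34972286, - strand, upstream of the gene and in no annotated exon): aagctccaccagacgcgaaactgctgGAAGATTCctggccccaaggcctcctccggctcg
A match describes the letters in the window and does not show that a factor bound there.

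Assigned reads per library ranged from 5823626 to 9216430. Values are CPM, the counts of a gene relative to the library total after TMM scaling. Means are given ± SD over the 3 libraries of a genotype, and fold changes compare deficient with wildtype libraries. Id2 lay at 338 to 468 CPM in the wildtype and 38.9 to 81.2 CPM in the deficient libraries, lower in every deficient library (log2 fold change -2.62, edgeR adjusted p = 0.0308). Genes tested at a count of 0 made up 5.63% in wildtype library 1 and 5.57% in deficient library 1, against 0.230% to 2.43% in the others, and both libraries stood apart from the rest. All 10 NK cell markers were detected well enough to be tested, and their summed level was 10424 to 12863 CPM in wildtype and 8461 to 8579 CPM in deficient libraries. Gzma was the largest part, at 3917 to 5496 and 2315 to 2726 CPM (edgeR adjusted p = 0.543), while Ncr1 had 1006 to 1023 and 900 to 1011 CPM. Mean levels of Tbx21 and Cd27 were higher in deficient libraries, and those of the other NK cell markers were lower. The 12 T cell markers summed to 171 to 266 and 346 to 451 CPM; 4 of them, Cd3e, Cd6, Cd8a and Themis, had at most 3 counts in any library. Cd3g lay at 4.62 to 8.34 CPM in wildtype and 54.8 to 68.2 CPM in deficient libraries, and Cd3d at 4.94 to 8.65 and 24.1 to 67.1 CPM, both without overlap (edgeR adjusted p = 0.131 and 0.543). Trbc1, the largest part of the sum, overlapped at 103 to 179 and 134 to 187 CPM. Trbc2 had 41.4 to 62.2 and 91.7 to 125 CPM, without overlap (edgeR adjusted p = 0.787). Cd4 and Cd8b1 had reads in wildtype library 1 only (57 and 37 counts), and Trac and Cd5 overlapped. The 6 B cell markers summed to 226 to 333 and 318 to 611 CPM, with Pax5 at 0 in all libraries. The 8 myeloid markers summed to 421 to 504 and 401 to 469 CPM, most of it Itgax (414 to 499 and 378 to 438 CPM), while Cd68 had 1.10 to 11.3 CPM in wildtype and 19.6 to 30.4 CPM in deficient libraries (edgeR unadjusted p = 0.0303, adjusted p = 0.914). Csf1r overlapped at 1.29 to 4.09 and 0 to 2.77 CPM. Lyz2 had reads in wildtype library 3 and deficient library 3 only. Ly6g, S100a8, S100a9 and Mpo had at most 3 counts in any library. The 6 erythroid markers summed to 8.48 to 19.8 and 1.47 to 7.19 CPM. Alas2 had 4.08 to 15.6 and 0 to 3.04 CPM, without overlap (edgeR adjusted p = 0.916). Hbb-bs overlapped at 1.10 to 3.76 and 1.14 to 3.04 CPM. The part of these levels in the results was not tested, and in bulk RNA fewer cells of a type and less RNA per cell cannot be told apart.

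None of the 9 genes passed the test. Of 11724 genes tested, 0.0171% passed at an adjusted p under 0.05 (quasi-likelihood test of edgeR, Benjamini-Hochberg adjustment). The filter on low counts kept 7 of the 9, all but Hspb1 and Cryab, and 0 of the 7 passed. DESeq2 and limma-voom also called 0. At an unadjusted p under 0.05 there were 2, Hspe1 and Hsf2, where 5.29% of all tested genes had such a p. In these same 2 genes all deficient libraries lay above all wildtype libraries, an order found in 6.03% of all tested genes. Of the 7 tested genes, 5 had a positive and 2 a negative log2 fold change, with a median of 0.46 against 0.02 over all tested genes. The median of the 7 was 0.28 without deficient library 3, 0.15 without both libraries numbered 1, and 0.29 with the reads of annotated pseudogenes added to their parent genes, the last chosen after seeing the data.

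**Figure D1:**
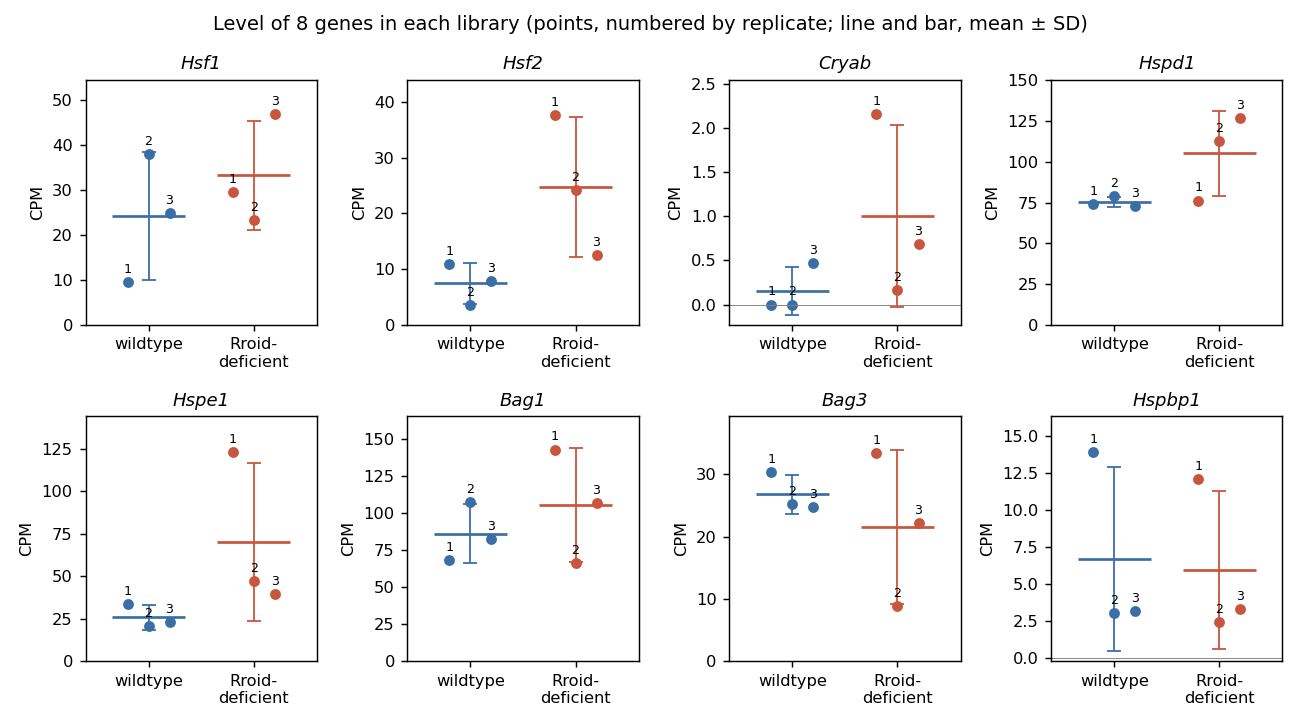
Level in CPM (y axis, linear) of the 8 genes with any read, in 3 wildtype and 3 Rroid-deficient libraries; points are libraries numbered by replicate, and lines and bars are mean ± SD. Hsf2 and Hspe1 show no overlap between genotypes, and deficient library 1 is the highest point for Hsf2, Hspe1, Cryab, Bag1 and Bag3.

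Hsf1 encodes the main activator of the heat shock response. It had 9.59, 38.1 and 24.9 CPM in wildtype libraries 1 to 3 and 29.5, 23.3 and 46.9 CPM in deficient libraries 1 to 3. The groups overlapped, and the lowest value was that of wildtype library 1. Its log2 fold change was 0.46 (SE 0.59, 95% interval -0.85 to 1.77, edgeR adjusted p = 0.938). Hsf1 without wildtype library 1 had a log2 fold change of 0.07, and without deficient library 3 one of 0.12. HSF1 protein is controlled largely after translation, so its mRNA level is not a measure of its activity.

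Hsf2 encodes a second heat shock factor, which can form mixed trimers with HSF1. Its level was 10.9, 3.54 and 7.86 CPM in wildtype and 37.6, 24.1 and 12.6 CPM in deficient libraries, so that the groups lay apart with deficient library 3 close to wildtype library 1. The raw counts were 73, 33 and 50 against 261, 148 and 91. The log2 fold change of 1.74 (SE 0.71, 95% interval 0.15 to 3.32) did not pass in edgeR (unadjusted p = 0.0352, adjusted p = 0.914), and the gene stood in position 439 in order of p. Without deficient library 1 the log2 fold change of Hsf2 was 1.30, and without both libraries numbered 1 it was 1.68.

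The small heat shock genes were at or near the limit of detection. Hspb1, which encodes Hsp25, the mouse form of Hsp27, had 0 counts in all 6 libraries, which allows up to 3 counts or 0.322 to 0.489 CPM per library, for counting error only. A processed pseudogene can take such reads out of a count of unique alignments: 42.7% of the 100-base windows of the Hspb1 transcript occur unchanged in other annotated transcripts, most of them in Hsp25-ps1, which was also at 0. The other windows of Hspb1 were unique among annotated transcripts. Cryab, which encodes alpha-B crystallin, had raw counts of 0, 0 and 3 in wildtype and 15, 1 and 5 in deficient libraries. Deficient library 1 alone held 2.16 CPM, deficient library 3 had 0.691 CPM, and the other 4 libraries lay at or under the level of 3 counts. Hspb2, which overlaps the start of Cryab on the opposite strand, had 0 counts in 5 libraries and 3 in deficient library 1.

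Hspe1 encodes Hsp10, the lid of the mitochondrial chaperonin. It had 34.0, 20.6 and 23.0 CPM in wildtype libraries (25.9 ± 7.15) and 123, 47.1 and 39.4 CPM in deficient libraries (70.0 ± 46.4). All deficient libraries were above all wildtype libraries, and deficient library 1 stood far above the other 5. The log2 fold change of 1.44 (SE 0.51, 95% interval 0.31 to 2.56), a 2.71-fold difference, did not pass in edgeR (unadjusted p = 0.0176, adjusted p = 0.906). Without deficient library 1 the log2 fold change of Hspe1 was 0.74 (edgeR unadjusted p = 0.135, adjusted p = 0.983), and without both libraries numbered 1 it was 0.98 (edgeR adjusted p = 0.768).

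Hspd1 encodes Hsp60, the barrel of the same chaperonin. It had 74.1, 78.9 and 73.0 CPM in wildtype libraries (75.4 ± 3.15) and 76.2, 113 and 127 CPM in deficient libraries (105 ± 26.1). Wildtype libraries were close together, and deficient library 1 lay among them while deficient libraries 2 and 3 were higher. Deficient against wildtype, Hspd1 had a log2 fold change of 0.48 (SE 0.29, 95% interval -0.16 to 1.13, edgeR adjusted p = 0.925). Without deficient library 1 it was 0.66 (edgeR unadjusted p = 0.0354, adjusted p = 0.983). The chaperonin pair differed in which deficient library was highest, although the promoter is shared: there were 0.459, 0.261 and 0.315 Hspe1 reads per Hspd1 read in wildtype libraries, and 1.62, 0.418 and 0.311 in deficient libraries. Across the 6 libraries Pearson's r of their log2 levels was 0.10. Hsf2 and Hspe1, both with deficient library 1 highest, had an r of 0.92. That was the highest among all pairs of the tested member genes, the next being 0.66, and it was picked for that reason. These are descriptions over 6 libraries that differ in depth and in genes at 0.

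The level of Hspd1 may depend on how reads were divided with a processed pseudogene, which was not tested. Hspd1-ps3 is 99.0% identical to the Hspd1 transcript over its 1722 bases, and 26.9% of the 100-base windows of Hspd1 occur unchanged in other annotated transcripts. Hspd1-ps3 had 77.1, 67.3 and 49.4 CPM in wildtype and 36.3, 91.8 and 68.6 CPM in deficient libraries, which is as high as its parent gene in wildtype library 1 and lower in the rest. Its groups overlapped, with deficient library 1 lowest. When reads of the annotated pseudogenes were added to their parents, an alternative chosen after seeing the data, the log2 fold change fell to 0.29 for Hspd1 and to 1.34 for Hspe1. Hspd1-ps3 itself had a log2 fold change of 0.02, so adding its reads lowers that of Hspd1 wherever they came from. The fall therefore does not show that reads were misplaced. For Hspe1, 22.4% of the 100-base windows occur elsewhere in the annotation, so both values carry this uncertainty. The gene that shared most of these windows was AC117239.2, whose reads were not among those added.

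**Figure D2:**
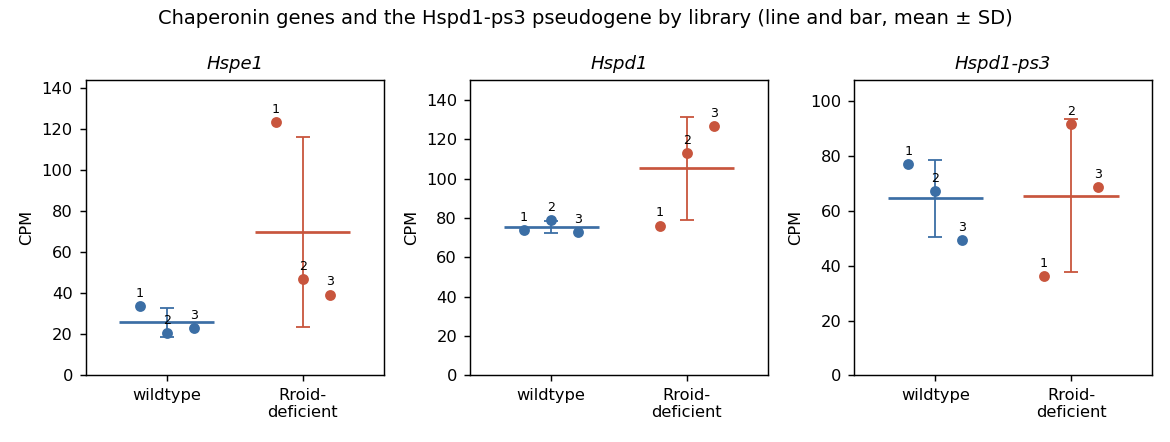
Level in CPM (y axis, linear, a scale for each panel) of Hspe1, Hspd1 and the pseudogene Hspd1-ps3 in each library; points are libraries numbered by replicate, and lines and bars are mean ± SD. Deficient library 1 is highest for Hspe1 at 123 CPM, the lowest of the deficient libraries for Hspd1 at 76.2 CPM and the lowest of all for Hspd1-ps3 at 36.3 CPM.

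Bag1 encodes a nucleotide exchange factor that links Hsp70 to the proteasome and binds BCL2. It had 68.2, 107 and 82.7 CPM in wildtype libraries and 143, 66.4 and 107 CPM in deficient libraries. The groups overlapped, with deficient library 1 highest and deficient library 2 lowest of all. Its log2 fold change was 0.29 (SE 0.34, 95% interval -0.47 to 1.05, edgeR adjusted p = 0.936), and it was 0.0032 for Bag1 without deficient library 1.

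Bag3 encodes the exchange factor that brings Hsp70 and small heat shock proteins together in selective autophagy, and it is a textbook target of HSF1. It had 30.4, 25.2 and 24.7 CPM in wildtype libraries and 33.4, 8.81 and 22.3 CPM in deficient libraries. Deficient library 2 was low and the other 5 lay between 22.3 and 33.4 CPM. Bag3 had a log2 fold change of -0.32 (SE 0.58, 95% interval -1.61 to 0.98, edgeR adjusted p = 0.956), and 0.052 without deficient library 2.

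Hspbp1 encodes an Hsp70-binding exchange factor outside the BAG family. It had 13.9, 3.01 and 3.15 CPM in wildtype and 12.1, 2.45 and 3.32 CPM in deficient libraries. Both libraries numbered 1, which had the most genes at 0, were about equally high and the other 4 equally low, so the spread within each genotype exceeded the difference between them. The log2 fold change was -0.17 with an SE of 1.06 (95% interval -2.52 to 2.19, edgeR adjusted p = 0.989), an interval that includes changes of several fold either way. Its direction turned without wildtype library 1 (0.94), deficient library 2 (0.20) or deficient library 3 (0.12).

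Levels of different genes were set side by side per kilobase of exonic length, the joined exons of all annotated transcripts. This length exceeded the longest coding transcript most for Hsf1 (7099 against 2104 bases), Hsf2 (9606 against 2604) and Hspe1 (1474 against 774). For Bag1 and Bag3 the lengths hardly differed, so the order of the genes depends on the length chosen. In wildtype libraries Bag1 was highest with a mean of 63.8 CPM per kilobase, before Hspd1 with 28.5, Hspe1 with 17.5 and Bag3 with 10.5 CPM per kilobase. Hspbp1 with 3.54 and Hsf1 with 3.41 CPM per kilobase followed, then Hsf2 with 0.775 and Cryab with 0.106. Over all 6 libraries Hspbp1 (1.29 to 7.36 CPM per kilobase) and Hsf1 (1.35 to 6.60) could not be told apart by this length. Bag1 (49.2 to 106 CPM per kilobase) and Hspd1 (27.6 to 47.9) did not overlap, nor did Hspd1 and Bag3 (3.44 to 13.1). Hspe1 ranged from 14.0 to 83.7 CPM per kilobase, across the ranges of Bag1 and Hspd1. In deficient libraries the mean of Hspe1 was 47.5 and that of Hspd1 39.8 CPM per kilobase. By this length Hspe1 was above Hspd1 in deficient library 1 only, at 83.7 CPM per kilobase, and below it in deficient libraries 2 and 3.

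Other genes of the heat shock response were compared to place these values. Of 24 such genes, all tested, 1 passed as higher and 0 as lower in edgeR, where 0.00853% of all tested genes passed in each direction. The gene that passed was Hspa1a, an inducible Hsp70, with counts of 2, 4 and 1 in wildtype and 236, 234 and 273 in deficient libraries. Its log2 fold change was 6.83 (SE 0.75) at an edgeR adjusted p of 0.0308. Every deficient library was far above every wildtype library. In 11 of the 24 the deficient libraries lay above all wildtype libraries and in 0 below, beside 6.03% and 6.33% of all tested genes. The median log2 fold change was 0.64. This list was drawn up with earlier results of these libraries known, so its direction is not independent evidence.

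**Figure D3:**
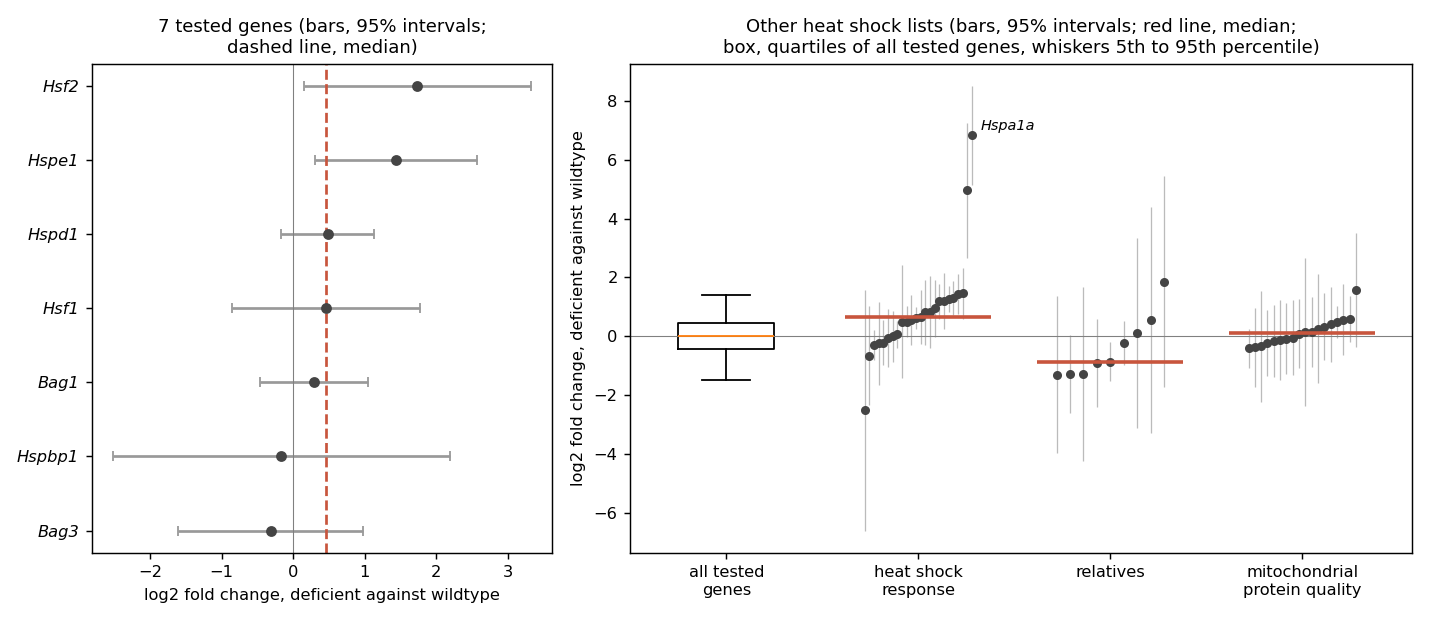
Log2 fold change of deficient against wildtype libraries with 95% intervals. Left, the 7 tested genes, with their median of 0.46 dashed; right, the members of 3 related lists, each with its median in red (0.64, -0.86 and 0.11), beside a box of all tested genes. Hspa1a is the gene that passed the test, and the intervals of Hsf2 and Hspe1 alone among the 7 lie above 0.

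Relatives of the 9 genes, meaning other heat shock factors, small heat shock proteins, BAG proteins and exchange factors, numbered 18. Of these, 9 were tested in edgeR and 0 passed. DESeq2 and limma-voom also called 0. At an unadjusted p under 0.05 in edgeR there was 1, where 5.29% of all tested genes had such a p. In 2 of the 9 tested relatives the deficient libraries lay below all wildtype libraries and in 0 above. These orders were found in 6.33% and 6.03% of all tested genes. The median log2 fold change of the relatives was -0.86, with 3 positive and 6 negative, and it was -0.16 without wildtype library 1. Bag6, a chaperone of tail-anchored and newly made membrane proteins, had 192, 126 and 113 CPM in wildtype and 63.4, 83.2 and 90.2 CPM in deficient libraries. All deficient libraries were lower, and the log2 fold change of -0.86 (SE 0.30) had an unadjusted p of 0.0151 and an adjusted p of 0.899 in edgeR. Bag5, an exchange factor with several BAG domains, had 26.2, 21.2 and 33.5 against 7.35, 8.65 and 17.0 CPM, again without overlap (log2 fold change -1.29, SE 0.60, edgeR adjusted p = 0.914). Bag4 had 16.9, 9.88 and 23.0 against 10.4, 9.14 and 7.05 CPM, with wildtype library 2 inside the deficient range (log2 fold change -0.90, SE 0.68, edgeR adjusted p = 0.925). Sil1, an exchange factor of the endoplasmic reticulum, had 0, 6.66 and 2.20 against 20.3, 0.163 and 11.9 CPM, and the groups overlapped.

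**Figure D4:**
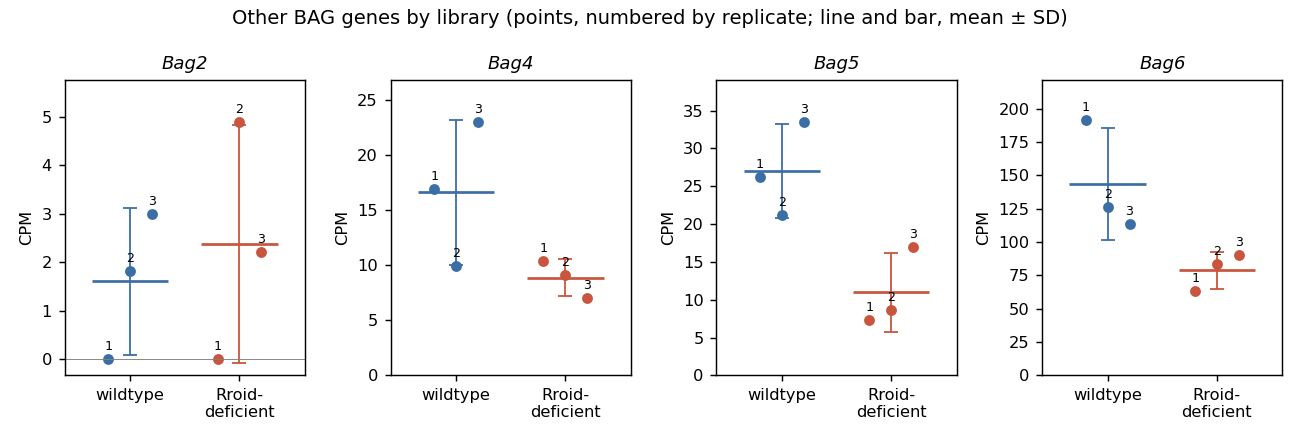
Level in CPM (y axis, linear, a scale for each panel) of Bag2, Bag4, Bag5 and Bag6 in each library; points are libraries numbered by replicate, and lines and bars are mean ± SD. Bag5 and Bag6 show no overlap between genotypes, with deficient libraries at most 17.0 and 90.2 CPM, and neither passed the test.

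Of 18 genes of mitochondrial protein quality, the setting in which Hspd1 and Hspe1 work, all were tested and 0 passed in edgeR, with 0 at an unadjusted p under 0.05 and 0 in DESeq2 and limma-voom. In 2 of the 18 the deficient libraries lay above all wildtype libraries and in 1 below, beside 6.03% and 6.33% of all tested genes. The median log2 fold change of the 18 was 0.11, with 10 positive and 8 negative. It was -0.07 without deficient library 2, -0.00026 with limma-voom and 0.021 with the replicate block. Hspa9, the mitochondrial Hsp70, had 34.5, 60.5 and 55.7 CPM in wildtype and 66.2, 94.0 and 68.2 CPM in deficient libraries, without overlap, and its log2 fold change was 0.60 (SE 0.35, edgeR adjusted p = 0.925). The protease gene Yme1l1 had 94.8, 95.7 and 133 against 159, 162 and 133 CPM, with wildtype library 3 and deficient library 3 nearly equal. The protease gene Afg3l2 had 85.4, 83.0 and 76.3 against 50.2, 71.6 and 61.7 CPM. Clpp, the peptidase subunit of a matrix protease, had 8.39, 8.81 and 5.98 against 53.5, 7.50 and 7.74 CPM. As for Hspe1, deficient library 1 stood above the others, and without it the log2 fold change of Clpp was -0.02.

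Genes beside these were read for shared reads or shared start regions. Chmp5, which starts close to Bag1 on the opposite strand, had 50.3, 33.9 and 39.2 CPM in wildtype and 23.8, 33.1 and 17.8 CPM in deficient libraries, all lower, and its log2 fold change was -0.72 (SE 0.45, edgeR adjusted p = 0.925). Bop1, beside the start of Hsf1, had 2.25, 9.56 and 12.0 against 6.49, 27.7 and 12.6 CPM. Mob4, downstream of Hspe1 on the same strand, had 29.8, 61.6 and 62.1 against 89.1, 47.6 and 48.8 CPM. For Bop1 and Mob4 the groups overlapped.

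Genes with the most similar pattern were sought by Pearson's r of log2(CPM + 0.5) over the 6 libraries, among 6154 other tested genes averaging 20 CPM or more. Those most like Hspe1 were Acbd5 (r = 0.988), Napa (0.985) and Ppp4r3b (0.983). Most like Hspd1 were Fbxw11 (r = 0.981), the pseudogene Anp32b-ps1 (0.968) and Ankrd12 (0.948), and most like Bag1 were Nek9 (r = 0.995), Gbp3 (0.994) and Pcnx3 (0.989). None of these 9 genes is in the heat shock lists. With 6 points and 6154 genes compared, these r values are a description only.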

How the data were processed

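The authors deposited raw counts, whole reads per Ensembl gene, in 1 file per library. Per the labels' protocols RNA was amplified with a kit that does not mark strand and sequenced as single reads of 100 bases. Per the submitters' processing notes, HTSeq 0.6.1, TopHat2 2.1.0, Trimmomatic 0.33 and DESeq2 were used with builds mm9 and NCBIM37. Settings, strand option included, were not given in the sources used here. Overlapping genes are thus uncertain. The 5 rows naming no gene held 80.0% to 84.4% of reads and were left out. Symbols (32919 of 37991 genes), exonic lengths and transcripts came from GENCODE on GRCm38. Genotype labels gave the groups.

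The test was edgeR 4.0.16 in R 4.3.3 (TMM, filterByExpr, quasi-likelihood fit on genotype). It was run on simulated data with planted changes larger than those seen in the 9 genes, so its power for smaller changes was not tested. SE were computed as the fold change over the root of F. Alternatives were limma-voom (limma 3.58.1), DESeq2 1.42.0, RLE size factors, no filter, a stricter filter (10 counts in 3 libraries, mean of 2 CPM), each library left out, both libraries numbered 1 left out, a replicate block, a threshold of 0.1 and, added after seeing the data, pseudogene reads added to parents. Every pair of libraries differed by more than sampling noise (chi-square over its degrees of freedom 19.2 or more). All 9 genes were named; in each list up to 4 passing genes or the 4 of smallest p; Id2; listed neighbours; and the 3 genes most like Hspe1, Hspd1 and Bag1. Hspd1-ps3, Hsp25-ps1 and the list genes named under other settings were chosen after their values were seen. Genes and lists were chosen with earlier results of these data known. Summed immediate early genes, a list for cell handling, were 643 to 1246 CPM in wildtype and 692 to 947 CPM in deficient libraries. Figures used matplotlib 3.10.9.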

Additional observations from a re-analysis of the deposited data

How the results depend on the processing

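None of the 7 tested genes passed under any of the 14 alternatives. Hspe1 (log2 fold change 0.74 to 1.72), Hsf2 (1.30 to 2.11), Hspd1 (0.29 to 0.66) and Hsf1 (0.07 to 0.95) kept their direction in all of them. Bag1 turned to -0.14 without both libraries numbered 1, Bag3 to 0.052 without deficient library 2 (range with 1 library left out -0.79 to 0.052), and Hspbp1 to 0.94, 0.20 and 0.12 without wildtype 1, deficient 2 and deficient 3 (range -1.21 to 0.94). The number of genes called among all tested was 2, and it was 88 with DESeq2 without a filter, 98 with edgeR without a filter, 1 with limma-voom, 0 without both libraries numbered 1, and 0 to 0 when any 1 library was left out. Of the heat shock response list, 1 gene was called, against 6 with DESeq2 (Hspa1a, Hspa1b, Hspa8, Dnaja1, Dnajb1, Hsph1), 7 without a filter (these and Hsp90aa1), 0 with limma-voom, 0 without both libraries numbered 1, and 0 to 0 with 1 library left out. The cause was not tested. With the replicate block 0 genes were called, in all and in this list, and Hspe1 had a log2 fold change of 1.28 (edgeR adjusted p = 0.961). Same-numbered libraries had residual correlations of 0.01, -0.02 and 0.03, and differently numbered ones had -0.04 to 0.03. These values do not settle whether the numbers pair the libraries. The median of the relatives list was 0.09 without both libraries numbered 1, against -0.86. Hspb1 and Cryab had too few reads to be tested, for a reason that was not tested, and the spread between libraries was wide for Hspbp1, Hsf1 and Bag3.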
